A study of Mus musculus with 4 samples.

Results

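The 4 mature arms of mouse miR-204 and miR-211 were examined in small RNA libraries of embryonic retina: mmu-miR-204-5p, mmu-miR-204-3p, mmu-miR-211-5p and mmu-miR-211-3p. They were chosen by name, as both arms of this miRNA pair, and are 4 of 1326 miRNAs listed in the count table. Of the 4, 3 had 10 or more counts in at least 2 libraries and were tested; miR-211-3p was not. The study sequenced RNA of 18 to 30 nt from whole retina at E18.5. There were 2 libraries from Ptf1a+/- embryos, which keep 1 functional copy of Ptf1a, and 2 from Ptf1a-/- embryos, which have none. The origin of the Ptf1a allele and the number of embryos behind each library were not found in the labels. Whether replicates are separate animals is therefore unknown, and p-values speak only to differences between libraries, part of which may be technical. Ptf1a is the transcription factor that retinal progenitors need to form amacrine and horizontal cells. The comparison asks which miRNAs differ in the retina when it is lost, and there is no wild-type group among these libraries. Ptf1a mRNA cannot be read from small RNA, so the genotypes rest on the labels.

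A miRNA hairpin is cut into a 5p and a 3p arm, and the arm that is loaded into Argonaute, the guide, usually accumulates while its partner is degraded. Bases 2 to 8 of the guide, the seed, pair with target mRNAs. miR-204 and miR-211 are paralogs that sit in introns of genes for related cation channels, Trpm3 and Trpm1. Both are known as miRNAs of the retinal pigment epithelium, the pigmented layer behind the neural retina, and miR-204 is also made in lens, ciliary body and parts of the neural retina. Trpm1 and miR-211 are targets of Mitf, the master regulator of pigment cells.

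The reference sequences are shown first because the results turn on how little separates the paralogs. They are from RefSeq (GRCm38.p6), 5′ to 3′, with the seed in capitals.
miR-204-5p: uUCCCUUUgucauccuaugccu
miR-211-5p: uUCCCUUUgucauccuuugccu
miR-204-3p: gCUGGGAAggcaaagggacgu
miR-211-3p: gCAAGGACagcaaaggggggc
The 5p arms are the same in 21 of 22 bases and share the seed UCCCUUU. They differ by A17T, with miR-204-5p as the reference, the second letter that of miR-211-5p, positions counted from 1 at the 5′ end and T written for U. The 3p arms are the same in 14 of 21 bases and have different seeds, so the family resemblance lies in the 5p arm. Among 1679 mature mouse miRNA names in the RefSeq table, the seed of the 5p arms was carried by 1 further miRNA, miR-7670-3p. It was not among the miRNAs listed in the count table.

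Each hairpin is shown with its arms in capitals.
Mir204: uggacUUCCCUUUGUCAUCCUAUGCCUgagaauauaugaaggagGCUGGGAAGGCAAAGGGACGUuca
Mir211: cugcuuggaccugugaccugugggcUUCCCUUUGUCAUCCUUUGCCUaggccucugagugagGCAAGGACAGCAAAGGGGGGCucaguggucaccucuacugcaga
The base after the 5p arm is a G in Mir204 and an A in Mir211, which matters for the sequence ends described below. Mir204 lies at chr19:22750605-22750672 on the plus strand. It is inside Trpm3 (chr19:22139046-22995410), and no exon of the 18 transcripts that span it overlaps it, so it is intronic. Mir211 lies at chr7:64205806-64205911, also on the plus strand. It is intronic in all 12 spanning transcripts of Trpm1 (chr7:64153835-64269775; GENCODE M21, GRCm38). In both host genes the intron is on the same strand as the hairpin. Host gene mRNA was not measured in these libraries of small RNA.

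Depth was even across the series, from 3647145 to 4385834 listed counts in a library. Levels are given as CPM (each count divided by the scaled library total) after TMM scaling, which sets libraries on a common scale from the miRNAs they share. The TMM factor of Ptf1a-/- replicate 2 (0.829) stood apart from the other 3 (1.06 to 1.07). The Ptf1a+/- libraries lay closer together than the Ptf1a-/- libraries: over 387 miRNAs with a mean of 50 or more counts, the median distance within the pair was 0.06 and 0.28 on the log2 scale. Neural retina markers were abundant in all 4 libraries, with miR-9-5p, a neural miRNA, at 193655 ± 99.1 CPM in Ptf1a+/- and 251707 ± 46813 CPM in Ptf1a-/- (mean ± SD, n = 2 each). The upper limit for a miRNA with a count of 0 was 0.638 to 0.924 CPM, depending on the library (3 counts, counting error only).

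mmu-miR-204-5p, the guide arm, was by far the most abundant member and was nearly level between genotypes. It had 3283 and 3325 CPM in Ptf1a+/- replicates 1 and 2, and 2944 and 3266 CPM in Ptf1a-/- replicates 1 and 2. Both Ptf1a-/- values lay below both Ptf1a+/- values, replicate 2 by a small margin, as was the case for 31.5% of all 584 tested miRNAs (the reverse order held for 26.7%). The means were 3304 ± 30.1 and 3105 ± 227 CPM (SD, n = 2 each). The log2 fold change of Ptf1a-/- over Ptf1a+/- was -0.09 ± 0.11 (SE), with a 95% interval of -0.36 to 0.19 and an adjusted p of 0.686 (edgeR quasi-likelihood test, Benjamini-Hochberg over all 584). The interval does not reach a change of 1 log2 unit in either direction. It ranked between 37 and 40 among the listed miRNAs in each library and took 0.271 to 0.356% of the counts.

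mmu-miR-204-3p, the partner arm, was lower in both Ptf1a-/- libraries. It had 397 and 391 CPM in Ptf1a+/- replicates 1 and 2, from 1535 and 1840 counts. In Ptf1a-/- replicates 1 and 2 it had 252 and 289 CPM, from 976 and 939 counts. The genotypes did not overlap, an order found for 31.5% of the 584 tested miRNAs. The gap between them was larger than the distance within either pair. miR-204-3p fell by a log2 fold change of -0.54 ± 0.12 (SE, 95% interval -0.84 to -0.25, edgeR quasi-likelihood adjusted p = 0.0436), from 394 ± 3.58 to 271 ± 26.3 CPM (SD, n = 2 each). It was 1 of 21 miRNAs called lower, 3.60% of the 584 tested (6.16% were called higher and 9.76% in either direction), and stood near the threshold of 0.05. The call did not hold under 9 of 11 alternatives, among them DESeq2's test (adjusted p = 0.0549), library size as the only scaling (0.0591), the deposited CPM with limma (0.0533) and the 2 Ptf1a+/- libraries summed into 1 (0.519). The direction was the same in all 11, with log2 fold changes from -0.89 to -0.45. With 1 library of whole retina per value, fewer cells that make a miRNA and less of it per cell cannot be told apart.

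**Figure D1:**
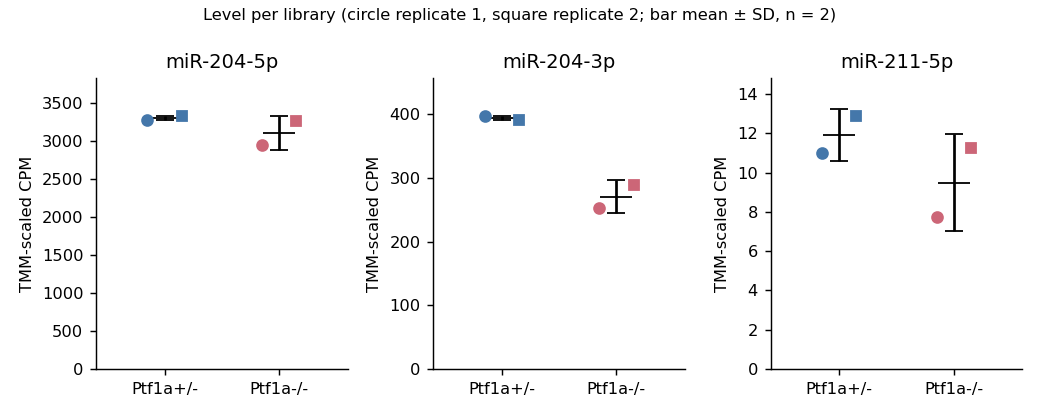
Levels of miR-204-5p, miR-204-3p and miR-211-5p in TMM-scaled CPM (y axes start at 0 and differ in range) by genotype, with a point for each library and a bar for the mean ± SD (n = 2). miR-204-3p stands at 391 and 397 CPM in Ptf1a+/- and at 252 and 289 in Ptf1a-/-, while the values of miR-211-5p overlap between genotypes.

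The size of these differences depended on the scaling. All tested miRNAs had a median log2 fold change of -0.003 with TMM, of -0.18 with library size only and of -0.33 on the deposited CPM. Of the called miRNAs, 63.2% were higher in Ptf1a-/- with TMM, 25% with library size only and 3.57% on the deposited CPM. Relative to the median of all tested miRNAs, miR-204-3p stood at -0.54, -0.55 and -0.55 under these scalings. On the same relative scale miR-204-5p stood at -0.09, -0.10 and -0.10, and miR-211-5p at -0.35, -0.36 and -0.29. A scaling shifts all miRNAs nearly alike and the median takes that shift out. The likeness of these relative values was therefore largely fixed in advance. The deposited CPM themselves were 349.1 and 351.1 for miR-204-3p in Ptf1a+/-, and 206.3 and 172.9 in Ptf1a-/-. For miR-204-5p they were 2890.5 and 2982.9 against 2410.4 and 1952.9, a log2 fold change of -0.44 ± 0.17 (limma on log2(CPM + 1), adjusted p = 0.150).

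**Figure D2:**
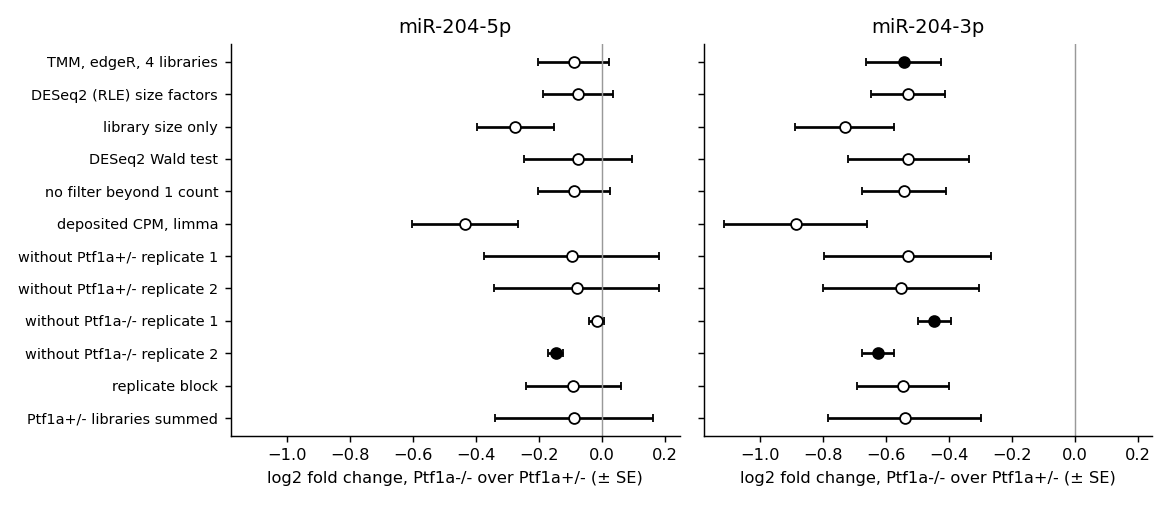
Log2 fold change of Ptf1a-/- over Ptf1a+/- (x axis, ± SE) for miR-204-5p and miR-204-3p under each planned setting (y axis), filled where the adjusted p was under 0.05. miR-204-3p lies between -0.89 and -0.45 in every setting but is filled in 3, and miR-204-5p is filled only without Ptf1a-/- replicate 2.

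The ratio of the arms compares reads of the same library, so no scaling enters it. miR-204-5p outnumbered miR-204-3p by 8.28 and 8.49 to 1 in Ptf1a+/- replicates 1 and 2, and by 11.7 and 11.3 to 1 in Ptf1a-/- replicates 1 and 2. The ratio was higher in both Ptf1a-/- libraries than in both Ptf1a+/- libraries, and the gap was larger than the distance within either pair. Expressed as a share of both arms, miR-204-3p made up 10.8% (95% Clopper-Pearson interval 10.3 to 11.3) and 10.5% (10.1 to 11.0) of the reads in Ptf1a+/-. In Ptf1a-/- its share was 7.88% (7.41 to 8.37) and 8.13% (7.64 to 8.65). The intervals of the genotypes did not overlap, but they cover counting error only.

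Shifts of this size were common among other miRNAs. Over 152 miRNAs with both arms measured, the log2 ratio of miR-204 differed by 0.45 ± 0.25 (SE, 95% interval -0.12 to 1.03) and did not pass (limma, adjusted p = 0.433). This SE is drawn towards the spread of all 152 pairs and is not the scatter of miR-204 alone. The log2 ratio of miR-204 itself had an SD of 0.026 in Ptf1a+/- and 0.035 in Ptf1a-/- (n = 2 each). The same order of the libraries, with no overlap, was found for 27.6% of the 152 arm pairs. A larger increase was seen in 24 pairs, and a larger change in either direction in 45. Only 1 pair passed, miR-673, with a lower ratio in Ptf1a-/- (0.658% of the 152; 17 pairs had an unadjusted p under 0.05). An exact permutation test of the miR-204 ratios alone gave p = 0.333 (two-sided), the smallest that 2 libraries against 2 can give. With the spread modelled as a trend on the counts of the pair, an alternative chosen after seeing the data, the unadjusted p was 0.0501 (limma, adjusted p = 0.301).

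**Figure D3:**
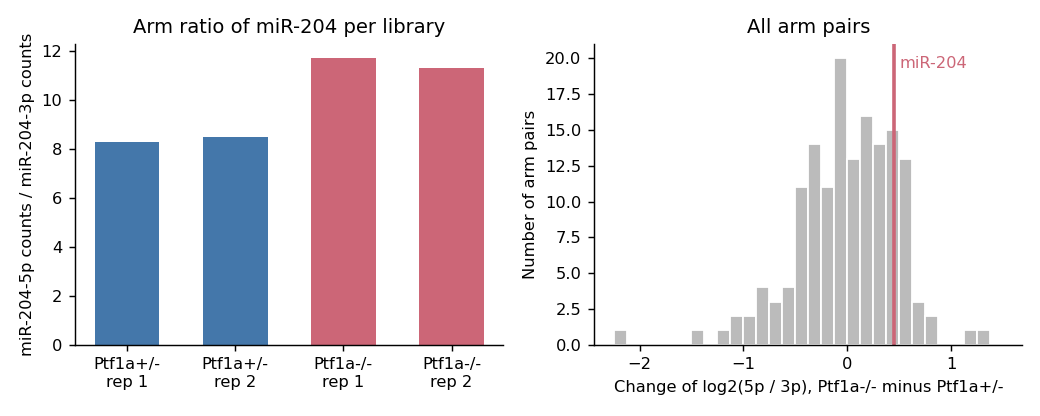
Left, counts of miR-204-5p over miR-204-3p in each library, with bars from 0 coloured by genotype (8.28 and 8.49 in Ptf1a+/-, 11.7 and 11.3 in Ptf1a-/-). Right, number of arm pairs (y axis) by the change of the log2 arm ratio from Ptf1a+/- to Ptf1a-/- (x axis) for all 152 pairs, with a line for miR-204 at 0.45, inside the bulk of the distribution.

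The most frequent sequence of miR-204-5p ended differently in the 2 genotypes. It is given here with the bases beyond the reference end in capitals.
Ptf1a+/- replicates 1 and 2: ttccctttgtcatcctatgcctG
Ptf1a-/- replicates 1 and 2: ttccctttgtcatcctatgcctGT
The form of Ptf1a+/- had 23 nt and matched the Mir204 hairpin throughout, including the added G. The form of Ptf1a-/- had 24 nt, and its last base, at position 24, did not match the hairpin, which has an A there. The 5′ end lay at the reference position in all 4 libraries, so the seed was the same. miR-204-3p showed the reference form of 21 nt in all 4 libraries, with no added or missing base, so of the arms of miR-204 only the 5p arm had a different end.

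Few miRNAs in the series showed such a difference. Of the 584 tested miRNAs, 408 (69.9%) had the same most frequent sequence in all 4 libraries, and 176 (30.1%) had any difference. Among the 141 miRNAs with a mean of 1000 or more counts, 12 (8.51%) had any difference. In 11 of the 584 (1.88%) the sequence was the same within each genotype and different between them. How many miRNAs split along other pairings of the libraries was not counted, so the 11 cannot be set against that number. miR-204-5p was the only 1 of these 11 among the 141 (0.709%). The next by counts was miR-1843b-5p, with a mean of 868.5 counts and 1 more base at its 5′ end in Ptf1a-/-. Of the 11, the form of Ptf1a-/- was longer in 6, shorter in 2 and equally long in 3. A last base that did not match the hairpin was common: it was found for 12.3 and 11.8% of the miRNAs compared in Ptf1a+/- replicates 1 and 2, and for 12.1 and 14.5% in Ptf1a-/- replicates 1 and 2. The table gives only the leading sequence, with no counts behind it, so how far the 2 forms were apart in any library is not known, and no test was made.

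**Figure D4:**
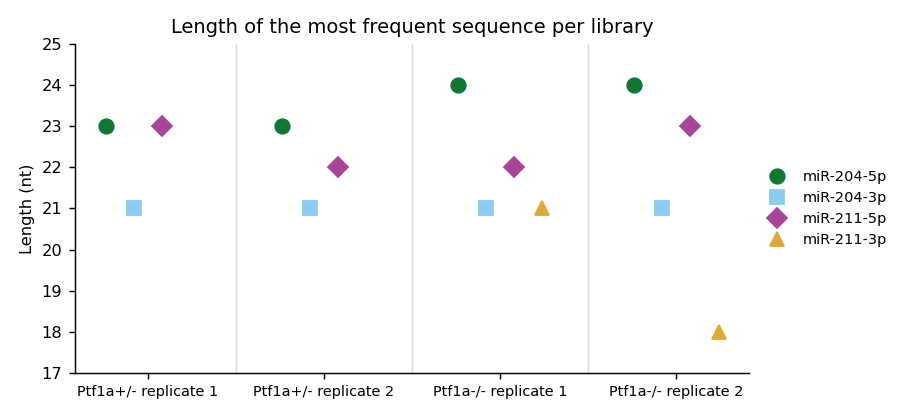
Length in nt (y axis, from 17) of the most frequent sequence of each member in the 4 libraries (x axis), with a marker per miRNA and none for miR-211-3p where it had no count. miR-204-5p is 23 nt in both Ptf1a+/- libraries and 24 nt in both Ptf1a-/- libraries, miR-204-3p is 21 nt throughout, and miR-211-5p is 22 or 23 nt within each genotype.

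mmu-miR-211-5p was a minor entry, and its leading sequence was not that of miR-211. It had 42.5 and 60.5 counts in Ptf1a+/- replicates 1 and 2 and 30.0 and 36.5 counts in Ptf1a-/- replicates 1 and 2. This is 11.0 and 12.9 CPM against 7.74 and 11.2 CPM, values that overlap between genotypes. The log2 fold change was -0.35 ± 0.29 (SE, 95% interval -1.06 to 0.35, edgeR quasi-likelihood adjusted p = 0.509), so a change of 1 log2 unit downwards lies within the interval. The most frequent sequences are shown with the bases in capitals that differ from the miR-211-5p reference or lie beyond its end.
Ptf1a+/- replicate 1 and Ptf1a-/- replicate 2: ttccctttgtcatcctGtgcctG
Ptf1a+/- replicate 2 and Ptf1a-/- replicate 1: ttccctttgtcatcctGtgcct
All 4 libraries thus had a G at the only position where the reference 5p arms of the paralogs differ. It is T17G against the miR-211-5p reference and A17G against miR-204-5p.

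The sequence listed for miR-211-5p was as near to miR-204 as to miR-211, or nearer. The 22 nt form had 1 mismatch to each hairpin. The 23 nt form had 1 mismatch to the Mir204 hairpin and 2 to the Mir211 hairpin, because its added G matches the base that follows the arm in Mir204 only. Of the 584 tested miRNAs, 15 (2.57%) had a mismatch before the last reference base in the leading sequence of every library. Among the 4 of these that began at the reference 5′ end and had a RefSeq sequence, 2 were at least as near another listed miRNA: miR-211-5p and let-7j, whose sequence was equally near let-7i-5p. How many of the counts of miR-211-5p carry the reference base is not known from these tables.

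The counts of the 5p arms were also tied to each other. In 3 of 4 libraries both ended in a fraction of 0.5, and in the other both were whole. Their sum was whole in all 4 libraries (12751, 15691, 11435 and 10642 counts), while the counts of miR-204-3p were whole in each. Between 76 and 104 of the 1326 listed values per library were not whole. The way reads that fit several miRNAs were divided was not found in the labels, so the level of miR-211-5p is uncertain. miR-211-5p made up 0.329% (95% Clopper-Pearson interval 0.238 to 0.445), 0.382% (0.292 to 0.492), 0.262% (0.177 to 0.374) and 0.338% (0.237 to 0.468) of the rounded counts of both 5p arms in Ptf1a+/- replicates 1 and 2 and Ptf1a-/- replicates 1 and 2. These intervals overlap in every pair of libraries. As a ratio, miR-204-5p exceeded miR-211-5p by 299, 258, 380 and 291 to 1 in the same order (exact permutation p = 0.667, two-sided). With both 5p entries summed, an alternative chosen after seeing the data, the log2 fold change was -0.09 ± 0.11 (edgeR, adjusted p = 0.683). As miR-211-5p is so small a share of the sum, this value could hardly differ from that of miR-204-5p alone, and it does not show how many miR-211 reads are counted under miR-204-5p.

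mmu-miR-211-3p, which differs from miR-204-3p in 7 bases, was at or near 0. It had 0 counts in both Ptf1a+/- libraries, which allows up to 0.775 and 0.638 CPM, and 1 count in each Ptf1a-/- library. Both genotypes are at or under the floor of 3 counts, and no fold is given. The read of Ptf1a-/- replicate 2 is shown first; that of replicate 1 carries C21T, its last base (in capitals).
Ptf1a-/- replicate 2: gcaaggacagcaaagggg
Ptf1a-/- replicate 1: gcaaggacagcaaaggggggT
The first matches the Mir211 hairpin with no mismatch and the Mir204 hairpin with 5, and the second with 1 and 6. Among the leading sequences of the 4 members, these are the only ones nearer to Mir211 than to Mir204. For comparison, the partner arm of miR-204 made up 7.88 to 10.8% of its reads. At counts of 30.0 to 60.5 for miR-211-5p, the share of miR-211-3p could be as high as 5.96 to 16.7% in a library (upper 95% Clopper-Pearson bounds). These bounds take every count of the miR-211-5p entry as miR-211, which is not known. The arm ratio of miR-211 was therefore not resolved.

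Other miRNAs of the pigment epithelium stood below miR-204-5p, and most did not pass. Of 7 listed, 3 were tested and 1 was called lower, beside 3.60% of all 584. This was miR-200b-3p, of an epithelial family, with 25 and 31 counts in Ptf1a+/- and 1 and 3 in Ptf1a-/- (edgeR, adjusted p = 0.0124). It reached the filter only through the Ptf1a+/- libraries, where it is high, so the call is a description and says nothing of the list. miR-187-3p differed by -0.35 ± 0.13 on the log2 scale (adjusted p = 0.178). miR-184-3p, the most abundant, which is also made in lens and cornea, had -0.44 ± 0.28 (adjusted p = 0.388). For these 2 both Ptf1a-/- libraries lay below both Ptf1a+/- libraries, an order found for 31.5% of all 584 tested miRNAs. The other 4, miR-200a-3p, miR-200c-3p, miR-141-3p and miR-429-3p, had at most 7 counts in any library. The summed level of the list was 341 and 354 CPM in Ptf1a+/- and 212 and 308 CPM in Ptf1a-/-, below that of miR-204-5p alone in every library. It was lower in both Ptf1a-/- libraries, as miR-204-3p was. The sum of the vessel and mesenchyme list below had the same order, and that of the striated muscle list the reverse. The part of the pigment epithelium list in the result of miR-204-3p was not tested.

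Of 6 miRNAs reported to target Mitf, 0 passed, beside 9.76% of all 584, a share at which 0 of 6 says little. Their fold changes went both ways, 3 up and 3 down (median 0.12 on the log2 scale, against -0.003 for all tested miRNAs). The smallest p-values were those of miR-340-5p (0.34 ± 0.11, edgeR adjusted p = 0.121) and miR-148b-3p (0.31 ± 0.11, adjusted p = 0.137), and the most abundant was miR-182-5p (0.37 ± 0.27, adjusted p = 0.454), which belongs to the photoreceptor cluster. The other 3 were negative: miR-218-5p (-0.55 ± 0.21, adjusted p = 0.173), miR-137-3p (-0.56 ± 0.58, adjusted p = 0.607) and miR-148a-3p (-0.07 ± 0.22, adjusted p = 0.881). Of 10 neural retina miRNAs 0 passed, again too few for a reading against 9.76%, and they too went both ways (median -0.04). miR-7a-5p had 0.53 ± 0.14 (adjusted p = 0.0779) and miR-181a-5p -0.45 ± 0.12 (adjusted p = 0.0843), while miR-9-5p, the most abundant, had 0.38 ± 0.20 (adjusted p = 0.300).

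Markers of tissue that a dissected retina could carry along summed to less than miR-204-5p alone. The summed levels of 2 lens and surface epithelium miRNAs, miR-203-3p and miR-184-3p, were 298 and 286 CPM in Ptf1a+/- and 227 and 299.6 CPM in Ptf1a-/-, and neither passed. They went opposite ways: miR-203-3p, of surface epithelium, was higher in both Ptf1a-/- libraries (0.30 ± 0.14, edgeR adjusted p = 0.244), while miR-184-3p was lower in both. These orders held for 26.7 and 31.5% of all tested miRNAs. Those of 4 vessel and mesenchyme miRNAs were 610 and 626 against 368 and 594 CPM (none of 3 tested passed, median -0.35), most of it miR-126a-3p, of endothelium (-0.35 ± 0.24, edgeR adjusted p = 0.416). miR-143-3p, of mural cells, had -1.03 ± 0.25 (adjusted p = 0.0637). Those of 4 blood cell miRNAs were 73.5 and 70.5 against 63.6 and 96.4 CPM, nearly all of it miR-486a-5p (0.15 ± 0.22, adjusted p = 0.737), with miR-451a, the main red cell miRNA, at 0 or 1 count. Those of 3 striated muscle miRNAs were 48.6 and 51.2 against 65.1 and 70.4 CPM, with miR-1a-3p at 0.55 ± 0.24 (adjusted p = 0.219) and miR-133a-3p at 0.44 ± 0.48 (adjusted p = 0.622). miR-184-3p is on the pigment epithelium list as well. In Ptf1a-/- replicate 1 it was at its lowest (102 CPM), and miR-203-3p was at its highest (124 CPM). The part of these tissues in the values of miR-204 was not tested.

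As miR-204-5p was itself nearly level, the miRNAs with the profile over the 4 libraries most like its own were bound to be flat ones. Likeness was the root mean square distance of the centred log2 CPM, over 311 other miRNAs with a mean of 100 or more counts. The nearest were miR-3074-5p (0.02), miR-130b-5p (0.02), miR-181d-5p (0.03), let-7d-5p (0.03) and let-7d-3p (0.03), all with log2 fold changes between -0.12 and -0.03. For miR-211-5p the nearest of 312 were miR-582-3p (0.07), miR-129-5p (0.09), miR-674-3p (0.09), miR-676-3p (0.09) and miR-152-5p (0.09), at larger distances. With 4 libraries these are descriptions of level only.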

How the data were processed

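Small RNA libraries from retina of mouse embryos were analysed, 2 of Ptf1a+/- and 2 of Ptf1a-/-, with genotype and replicate number from the sample titles. Per the labels' protocols, RNA was gel-cut to 18 to 30 nt, ligated with a New England Biolabs kit, and the cDNA cut to 60 to 80 nt. Both cuts, ligation and PCR favour some sequences, so levels of different miRNAs or arms are less comparable than those of 1 miRNA between libraries. The protocols describe no molecular identifiers, so PCR copies of a molecule may be counted as separate reads. Intervals cover counting error only, and may be too narrow even for that. Per the submitters' processing notes, reads were demultiplexed with bcl2fastq 2.20.0.422. Aligner, counter, build: not given in the sources used here.

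Per miRNA, the deposited raw values are estimated counts (5.73 to 7.84% per library not whole), and were rounded for count tests. The design had allowed for that. The deposited CPM were divided by the authors by a larger total than the listed counts. The listed counts were 83.0 and 83.7% of it in Ptf1a+/- replicates 1 and 2. In Ptf1a-/- replicates 1 and 2 they were 77.3 and 72.1% of it, which lowers the deposited CPM of all miRNAs there. The deposited table of most frequent sequences is text, per the file headers written against miRBase22.

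The genotypes were compared with edgeR 4.0.16 (R 4.3.3; quasi-likelihood F test, TMM, genotype only) over the 584 miRNAs that reached 10 counts in 2 libraries or more, called at a Benjamini-Hochberg adjusted p under 0.05. SE were derived from the fit. Arm ratios were compared with limma 3.58.1 on log2((5p + 0.5)/(3p + 0.5)) over 152 arm pairs. Both fits were tried on simulated data in which the genotypes had the same spread. The libraries here did not, so the simulation does not cover that feature of the data. Alternatives were DESeq2 1.42.0, its size factor method run in edgeR, library size only and no filter. Others were the deposited CPM (limma, pseudocount 1), each library left out, a replicate block and the Ptf1a+/- pair summed. The members and lists were chosen with earlier results of these data known. Beside the members, the text names the 2 smallest p-values and the most abundant miRNA of each list, and the 5 nearest profiles of each 5p arm; miR-673, miR-1843b-5p, let-7j, miR-218-5p, miR-137-3p, miR-148a-3p and single untested list members were named after their values were seen. Sequences and positions are from RefSeq (GRCm38.p6) and GENCODE M21; 494 of the 584 miRNAs had a RefSeq mature sequence.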

Additional observations from a re-analysis of the deposited data

How the results depend on the processing

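The fall of miR-204-3p kept its direction under all 11 alternatives and passed in 2 of them, each without 1 Ptf1a-/- library. Its log2 fold change was -0.53 with DESeq2's size factor method run in edgeR (edgeR, adjusted p = 0.0553), -0.53 with DESeq2's test and -0.73 with library size only. It was -0.54 without the filter (edgeR, adjusted p = 0.128), -0.89 on the deposited CPM, -0.55 with the replicate block (edgeR, adjusted p = 0.122) and -0.54 with the Ptf1a+/- pair summed. Leaving out 1 library gave -0.62 to -0.45 for miR-204-3p and -0.15 to -0.017 for miR-204-5p, which passed only without Ptf1a-/- replicate 2 (edgeR, adjusted p = 8.02e-09). With 1 library in an arm the spread comes from the other pair alone. Without a Ptf1a-/- library the spread is that of the close Ptf1a+/- pair. Against 36 miRNAs called higher and 21 lower with TMM, 33 and 18 were called with DESeq2's size factor method in edgeR. DESeq2's test called 42 and 17. The numbers of miRNAs called (36 higher, 21 lower) were 4 and 12 with library size only, 12 and 9 without the filter, 1 and 27 on the deposited CPM, 5 and 7 with the replicate block, and 0 and 1 with the Ptf1a+/- pair summed (edgeR; 36 higher and 27 lower at an unadjusted p under 0.05). Without Ptf1a+/- replicate 1 or 2 the numbers were 0 and 5, or 0 and 1, and miR-204-3p did not pass (edgeR, adjusted p = 0.505 and 0.536). Without Ptf1a-/- replicate 1 or 2 they were 140 and 123, or 142 and 132.

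The arm ratio of miR-204 stayed between 0.43 and 0.48 and passed under none of 9 alternatives (adjusted p from 0.129 to 0.928). The number of arm pairs called (1) was 4 with a pseudocount of 5, 7 with the replicate block, 2 with the spread as a trend, 0 with 1 or more count required in every library (limma; 18 at an unadjusted p under 0.05), 0 with the Ptf1a+/- pair summed (6 unadjusted) and 0 to 26 without 1 library. Counting the 5′ end only, 4 miRNAs in place of 11 differed in their leading sequence by genotype, and miR-204-5p, whose change is at the 3′ end, is not among them. List medians, relative to all miRNAs, ranged without 1 library from -0.93 to -0.24 (other pigment epithelium), -0.057 to 0.29 (Mitf), -0.26 to 0.13 (lens), -0.15 to 0.47 (blood; 0.65 without the filter), -0.76 to 0.018 (vessels) and 0.33 to 0.75 (muscle). Equal replicate numbers are not said to mark a shared litter or day, and deviations of same-numbered libraries were not correlated (r = 0.03 over 387 miRNAs, across miRNAs, which are not independent). The miR-211-5p entry had 30.0 to 60.5 counts, and how many of them are miR-211 is not known. Both limits, depth and identity, leave the genotype difference and arm ratio of miR-211 unresolved.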
